A study of Mus musculus with 6 samples.

Results

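Matricellular proteins are secreted into the matrix around a cell, where they change how the cell holds on to that matrix. The transcripts of 10 such genes of the bulge niche were followed through 3 cell populations of the mouse hair follicle: Postn, Npnt, Sparc, Spon1, Tnc, Thbs1, Thbs2, Fn1, Egfl6 and Spp1. They were chosen by name, with earlier results of these data known. All probe sets that the platform annotation pairs with 1 of these symbols were taken. That gave 23 of the 34945 probe sets with a single symbol, for 9 of the 18193 genes measured. Spp1 had no probe set of its own in that annotation and was not analysed here, and a probe set shared between Thbs1 and a second gene was left out.

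RNA came from cells sorted out of the back skin of untreated female CD-1 mice, with 2 Affymetrix arrays for each of 3 groups. HF-TAC, the transit-amplifying cells of the hair matrix, were sorted with GFP, integrin α6 and ephrinB1 at postnatal days 28 to 30. aHF-SC, activated stem cells, were taken by GFP, integrin α6 and CD34 at the same age. qHF-SC, quiescent stem cells, were taken by integrin α6 and CD34 at postnatal days 52 to 60. No label says what carries the GFP, or whether the gates took the bright or the dim side. Age, sorting markers and cell state change together between qHF-SC and the other groups, so their effects cannot be told apart. Between HF-TAC and aHF-SC, of the same age, sorting markers and cell state change together and cannot be told apart either. No label ties an array to an animal, so p-values rest on a spread between arrays that may be technical. In sorted bulk RNA, fewer cells of a type and less RNA per cell cannot be told apart.

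The bulge is the part of the outer root sheath that houses the hair follicle's stem cells, and the arrector pili muscle attaches there. Its cells lay down much of their own basement membrane. In mouse skin, nephronectin (Npnt) made by bulge cells is a ligand of the integrin α8β1 on the muscle, and Egfl6 is a related protein of the follicle's basement membrane. Periostin and SPARC act on collagen, tenascin-C and the thrombospondins loosen or tune adhesion, and fibronectin is a fibrillar adhesion protein that binds integrins directly.

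The arrays were alike in their overall distribution, with medians between 22.79 and 23.89 on the linear intensity scale. An intensity under the array's own median is called dim here, a choice made after the data were seen. Replicates correlated across genes at r = 0.9885 in HF-TAC, 0.9911 in aHF-SC and 0.9915 in qHF-SC, where genes are not independent replicates. All 9 measured bulge stem cell markers were lower in HF-TAC than in aHF-SC and 7 of 9 matrix cell markers were higher. The stem cell markers include Cd34 (log2 difference -7.13). As aHF-SC were sorted by CD34, its difference was no independent check. Between aHF-SC and qHF-SC, 6 of 7 dividing cell markers and 9 of 13 dissociation stress genes were higher in aHF-SC. The summed intensity of the stress list was 66610.3 and 56584 on the HF-TAC arrays, 77093 and 110461 on those of aHF-SC and 36378 and 29983 on those of qHF-SC. Of the cells that a skin digest can carry over, endothelial, immune, dermal papilla and Schwann cell markers were mostly low. The dermal fibroblast, smooth muscle and melanocyte lists were each much higher in a single group and are given further below. The endothelial list summed to between 110.0 and 139.7 on the 6 arrays, with Pecam1, Cdh5, Tie1 and Cldn5 dim on all of them. The immune list summed to between 176.3 and 233.5, with Ptprc, Adgre1 and Itgax dim throughout. The dermal papilla list summed to between 151.8 and 308.0, with 5 of 8 members dim throughout, and the 3 measured Schwann cell markers to between 85.9 and 133.0. Of 6 basal keratinocyte markers, 4 were lower in HF-TAC than in aHF-SC and 1 higher in aHF-SC than in qHF-SC. The 4 include Itga6 (-1.39), and as all 3 groups were sorted by integrin α6, its difference was no independent check. In the dermal papilla list Hhip was lower in HF-TAC than in both stem cell groups (-1.35 against aHF-SC, -1.86 against qHF-SC) and Vcan higher in HF-TAC than in qHF-SC (1.19). The endothelial gene Cdh5, dim throughout, was lower in HF-TAC than in qHF-SC (-0.53). Against qHF-SC, the aHF-SC arrays had 2 of 9 matrix cell markers raised: Krt35 (3.34, limma adjusted p = 0.0118) and Krt25 (3.14, 0.0158). The part of matrix cells in the aHF-SC values was not tested. Of 9 bulge stem cell markers, 2 were reduced in that comparison: Cd34 (-1.49, limma adjusted p = 0.0259) and Dkk3 (-1.60, 0.00396). Both groups were sorted by CD34, so its difference was again no independent check. Several other marker genes that differed between groups are given beside the genes whose order they share.

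Transcripts of the niche proteins were highest in one or the other stem cell group and, for most of them, far lower in HF-TAC. A gene was called where limma's p-value, adjusted over all genes, was under 0.05, and values in parentheses hereafter are log2 differences ± their standard error (SE). In HF-TAC against aHF-SC, 7 of the 9 genes were lower and 0 higher by limma (0 higher also at an unadjusted p under 0.05). The falls were 32.0-fold for Sparc, 20.3-fold for Egfl6, 16.03-fold for Npnt, 13.7-fold for Postn and 10.5-fold for Tnc. The order of these sizes is not settled, since Egfl6 was dim on 1 HF-TAC array and averaging probe sets put Sparc below Egfl6 in size (log2 differences -3.37 and -4.34). Over all genes 8.57% were lower and 8.97% higher in this comparison. HF-TAC against qHF-SC gave 7 lower, among them Sparc at 41.7-fold, and 2 higher, Spon1 and Fn1. The shares over all genes were 12.9% lower and 13.4% higher. In aHF-SC against qHF-SC the genes went both ways: Spon1, Fn1 and Tnc were higher and Postn and Thbs2 lower, where 3.07% of all genes were higher and 3.21% lower. This count of 5 was 0 by limma when qHF-SC replicate 2 was dropped (5 at an unadjusted p under 0.05) and 3 without aHF-SC replicate 2. Calls over all genes fell as well when either array was dropped. The median log2 difference of the 9 genes was -3.40, -2.30 and 0.04 in these comparisons, against -0.01, -0.01 and 0.00 over all genes. Each pair of comparisons shares 2 arrays, so the 3 sets of values are not independent of each other.

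**Figure D1:**
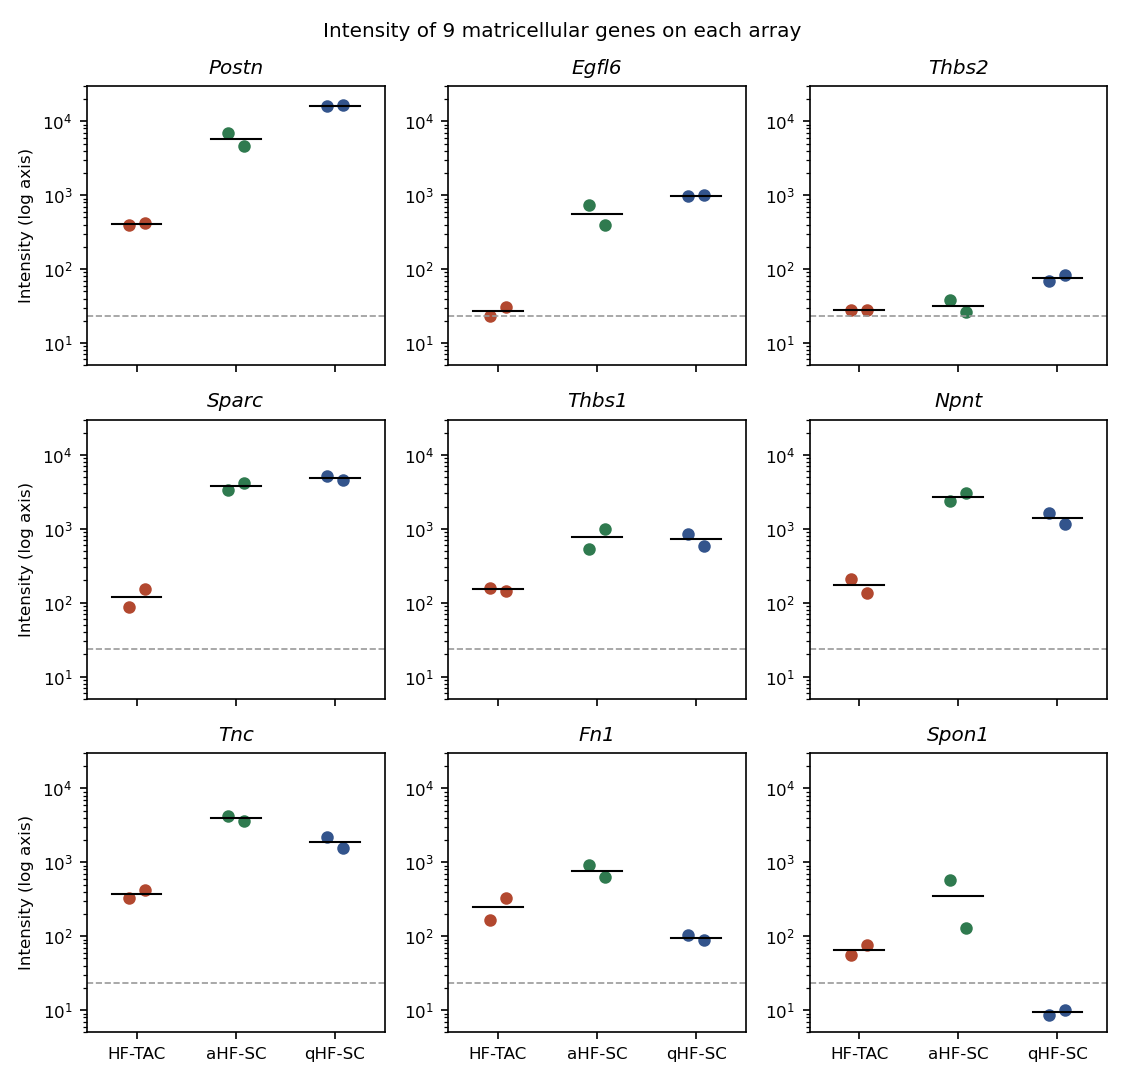
Intensity of the 9 measured genes on each of the 6 arrays (log axis), through the probe set with the highest mean for each gene. Points are arrays, short lines are means of the 2 arrays of a group, and the dashed line is the median intensity over the arrays. Postn, Egfl6, Sparc, Npnt, Tnc and Thbs1 are lowest on both HF-TAC arrays, while Fn1 and Spon1 are lowest on both qHF-SC arrays. Levels are not comparable between panels.

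The promoters of Postn, Npnt, Tnc and Egfl6 are shown because these transcripts fell in HF-TAC against both stem cell groups and their windows held a motif. Sequences of 250 bases before to 50 after the start are from RefSeq (GRCm38.p6). The promoter set available here held 6 of the 9 measured genes and not Fn1, Thbs1 or Spon1. These sequences are printed 5′ to 3′ in the direction of transcription. Both strands were searched for 6 motifs: TATAAA for the TATA box, TGANTCA for AP-1 factors, GGAATG for TEAD factors, TGGAAA for NFAT factors, CTTTGA for TCF and LEF factors and GGGCGG for the GC box. None of these letter strings overlaps another in the windows shown, and capitals mark each match. The windows are chr3:54360857-54361156 (plus strand) for the inner of the 2 Postn starts, chr3:132950242-132950541 (minus) for Npnt, chr4:64046966-64047265 (minus) for Tnc and chrX:166585667-166585966 (minus) for Egfl6.
Postn: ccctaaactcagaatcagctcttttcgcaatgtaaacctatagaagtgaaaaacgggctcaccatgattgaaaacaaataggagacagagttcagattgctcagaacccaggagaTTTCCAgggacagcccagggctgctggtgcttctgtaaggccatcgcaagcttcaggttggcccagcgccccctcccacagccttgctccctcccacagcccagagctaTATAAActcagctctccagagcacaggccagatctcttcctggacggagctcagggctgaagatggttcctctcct
Npnt: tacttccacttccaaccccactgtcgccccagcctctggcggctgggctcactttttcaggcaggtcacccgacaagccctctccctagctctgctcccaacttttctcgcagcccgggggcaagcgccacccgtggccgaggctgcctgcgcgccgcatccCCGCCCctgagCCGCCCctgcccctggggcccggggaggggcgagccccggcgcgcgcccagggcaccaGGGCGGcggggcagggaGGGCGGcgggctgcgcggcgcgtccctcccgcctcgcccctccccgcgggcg
Tnc: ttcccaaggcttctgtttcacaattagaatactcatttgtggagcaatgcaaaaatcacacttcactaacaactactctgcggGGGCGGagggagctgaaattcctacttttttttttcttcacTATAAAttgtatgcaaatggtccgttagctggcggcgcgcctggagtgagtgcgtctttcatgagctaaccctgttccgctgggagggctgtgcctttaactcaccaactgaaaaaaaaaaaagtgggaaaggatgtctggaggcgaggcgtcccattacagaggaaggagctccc
Egfl6: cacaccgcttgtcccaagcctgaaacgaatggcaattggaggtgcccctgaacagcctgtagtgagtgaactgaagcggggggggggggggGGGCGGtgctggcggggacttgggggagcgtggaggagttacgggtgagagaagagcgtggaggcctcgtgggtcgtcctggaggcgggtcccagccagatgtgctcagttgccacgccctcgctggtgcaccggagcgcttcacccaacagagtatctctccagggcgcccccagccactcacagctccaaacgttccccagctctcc
The Postn window held TATAAA at position -26, counted in bases from the start, and TGGAAA on the other strand at -135. Npnt held 4 GC boxes, at -88, -77, -19 and -2. Tnc held TATAAA at -126 and a GC box at -167, and Egfl6 a GC box at -159. The Npnt and Tnc windows shown are those of the outer start. The outer Postn start, an inner Npnt start and the Sparc promoter held none of the 6 motifs. An inner Tnc start held TATAAA at -205 and a GC box at -246. Of 32851 promoters of the same length in the table, 13.6% held TATAAA, 7.81% TGANTCA, 14.7% GGAATG, 21.4% TGGAAA, 16% CTTTGA and 35.7% GGGCGG. A match is a description of letters, and no match says only that the letters are not in this window.

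Npnt and Egfl6 encode the related integrin ligands of the follicle's basement membrane. Npnt, on chromosome 3 at 132881745 to 132950291 (GRCm38.p6), had intensities of 208 and 135 in HF-TAC, 2386 and 3016 in aHF-SC and 1626 and 1169.9 in qHF-SC. Both aHF-SC arrays stood above both qHF-SC arrays, and both HF-TAC arrays were well below all others. Npnt was 16.03-fold lower in HF-TAC than in aHF-SC (log2 difference -4.00 ± 0.26 SE, limma adjusted p = 0.000263) and 8.24-fold lower than in qHF-SC (-3.04 ± 0.26, adjusted p = 0.000297). The difference within the stem cells did not pass, with aHF-SC minus qHF-SC at 0.96 ± 0.26 (adjusted p = 0.086).

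Egfl6 lies on the X chromosome at 166523007 to 166585716. It had intensities of 23.1 and 30.5 in HF-TAC, 729.6 and 397 in aHF-SC and 964 and 998 in qHF-SC. HF-TAC was at about the array median, the qHF-SC arrays nearly coincided, and the aHF-SC arrays lay apart from each other but below both qHF-SC arrays. As HF-TAC replicate 1 was dim, the size of the Egfl6 folds is uncertain, and an offset of 16 before log2 gave -3.70 against aHF-SC and -4.55 against qHF-SC. Egfl6 was 20.3-fold lower in HF-TAC than in aHF-SC (-4.34 ± 0.29, adjusted p = 0.000265) and 37.0-fold lower than in qHF-SC (-5.21 ± 0.29, adjusted p = 6.89e-05). The difference between aHF-SC and qHF-SC, -0.87 ± 0.29, did not pass (adjusted p = 0.143). Npnt thus had its highest values in aHF-SC and Egfl6 in qHF-SC, and in neither gene did the stem cell groups differ past the threshold. These calls in HF-TAC held with each of the 6 arrays left out in turn, where a group left with 1 array is assumed to vary like the others.

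Postn and Sparc encode matrix proteins that bind collagen or act on its assembly. Postn (periostin, chromosome 3 at 54359267 to 54391041) had intensities of 396 and 421 in HF-TAC, 6837 and 4563 in aHF-SC and 16135 and 16423 in qHF-SC. The 3 groups did not overlap and formed a graded order with qHF-SC at the top. Postn was 13.7-fold lower in HF-TAC than in aHF-SC (-3.77 ± 0.21, adjusted p = 0.000169) and 39.9-fold lower than in qHF-SC (-5.32 ± 0.21, adjusted p = 3.25e-05). In aHF-SC it was 2.91-fold lower than in qHF-SC (-1.54 ± 0.21, adjusted p = 0.0111), a call lost when qHF-SC replicate 2 was dropped (adjusted p = 0.081).

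Sparc (osteonectin, chromosome 11 at 55394159 to 55420080) had intensities of 88.3 and 154 in HF-TAC, 3308 and 4202 in aHF-SC and 5116 and 4612 in qHF-SC. The stem cell arrays stood close together and HF-TAC far below them. Sparc was 32.0-fold lower in HF-TAC than in aHF-SC (-5.00 ± 0.27, adjusted p = 0.000163) and 41.7-fold lower than in qHF-SC (-5.38 ± 0.27, adjusted p = 4.93e-05). Its difference between aHF-SC and qHF-SC was -0.38 ± 0.27 (adjusted p = 0.522). A second Sparc probe set followed the first, with 78.0 and 134 in HF-TAC, 2754 and 3260.1 in aHF-SC and 4562 and 3922 in qHF-SC. Within HF-TAC the replicates of Sparc lay further apart than those of Postn. The dermal fibroblast list, whose cells also make Postn, Sparc and Fn1, summed to 3838 and 6369.7 in HF-TAC, 435 and 720.2 in aHF-SC and 450.1 and 558 in qHF-SC. Pdgfra, Lum and Dpt were dim on every array, and Dcn, a small proteoglycan, made up most of the HF-TAC sum with 3646 and 5927. Without Dcn the list summed to 193 and 443 in HF-TAC, 382 and 633 in aHF-SC and 421 and 541 in qHF-SC. Among the collagen genes of the list, Col6a3 was lower in HF-TAC than in aHF-SC (-0.97, limma adjusted p = 0.016). Col1a2 was lower in HF-TAC than in qHF-SC (-1.73, adjusted p = 0.0194). In aHF-SC, Col6a3 and Dcn were above qHF-SC (1.54 and 1.64). The part of this list in the Postn and Sparc values was not tested.

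Tnc, Thbs1 and Thbs2 encode proteins that modulate adhesion. Tnc (tenascin-C, chromosome 4 at 63959785 to 64047015) had intensities of 328 and 424 in HF-TAC, 4259.8 and 3627 in aHF-SC and 2193 and 1547 in qHF-SC. The groups did not overlap, with aHF-SC highest and HF-TAC lowest. Tnc was 10.5-fold lower in HF-TAC than in aHF-SC (-3.40 ± 0.22, adjusted p = 0.000263) and 4.94-fold lower than in qHF-SC (-2.30 ± 0.22, adjusted p = 0.000449). It was 2.13-fold higher in aHF-SC than in qHF-SC (1.09 ± 0.22, adjusted p = 0.0358). This last call was lost when qHF-SC replicate 2 (adjusted p = 0.207), aHF-SC replicate 1 (0.161) or aHF-SC replicate 2 (0.0949) was dropped, with an offset of 16 before log2 (0.0724) and with the mean of both Tnc probe sets (0.0849).

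Thrombospondin 1, a secreted ligand of CD36 and CD47 that can activate latent TGF-beta, is encoded by Thbs1 on chromosome 2 at 118111876 to 118127133. Its intensities were 158 and 145 in HF-TAC, 530.1 and 999 in aHF-SC and 855 and 582 in qHF-SC. The stem cell groups overlapped and both lay above HF-TAC. Thbs1 was 4.81-fold lower in HF-TAC than in aHF-SC (-2.27 ± 0.31, adjusted p = 0.00337) and 4.67-fold lower than in qHF-SC (-2.22 ± 0.31, adjusted p = 0.00212). The stem cell groups differed by 0.04 ± 0.31 (adjusted p = 0.969), a difference whose sign turned when qHF-SC replicate 2 (-0.23) or aHF-SC replicate 2 (-0.41) was dropped. In each group the replicate with the higher Thbs1 intensity also had the higher sum of the dissociation stress list given above. The same held for Npnt. The part of that list in the Thbs1 and Npnt values was not tested.

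Thbs2, its close relative on chromosome 17 at 14665500 to 14694262, had intensities of 28.1 and 28.3 in HF-TAC, 38.2 and 26.1 in aHF-SC and 68.4 and 82.7 in qHF-SC. The qHF-SC arrays were highest, and HF-TAC and aHF-SC overlapped. Thbs2 was 2.67-fold lower in HF-TAC than in qHF-SC (-1.41 ± 0.21, adjusted p = 0.00278). In aHF-SC it was 2.38-fold below qHF-SC (-1.25 ± 0.21, adjusted p = 0.0201). HF-TAC and aHF-SC differed by -0.16 ± 0.21 (adjusted p = 0.724), or by 0.11 without aHF-SC replicate 1. The aHF-SC call was lost when qHF-SC replicate 1 (adjusted p = 0.0524), qHF-SC replicate 2 (0.142) or aHF-SC replicate 2 (0.0735) was dropped, with the offset (0.0512) and with the mean of the 3 Thbs2 probe sets (0.0855). Of the melanocyte list, 1 gene shared the order with qHF-SC highest: Mitf had 93.6 and 78.3 in HF-TAC, 175 and 175 in aHF-SC and 1581 and 1801 in qHF-SC. The other 5 measured genes summed to 419 and 617 in HF-TAC, 259 and 339.5 in aHF-SC and 202 and 155 in qHF-SC, lowest in qHF-SC, and 3 of them (Dct, Mlana and Tyr, the last dim throughout) were higher in HF-TAC than in qHF-SC. In the immune list Cd68 was highest in qHF-SC, with 17.4 and 24.2 in HF-TAC, 18.6 and 28.01 in aHF-SC and 58.4 and 63.5 in qHF-SC (adjusted p = 0.00328 for HF-TAC and 0.0209 for aHF-SC against qHF-SC). The part of these markers in the Thbs2 values was not tested.

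Fn1 and Spon1 had their lowest levels in qHF-SC. Fibronectin, the product of Fn1 (chromosome 1 at 71585473 to 71653280), is assembled into fibrils through the integrin α5β1. Its intensities were 168 and 333 in HF-TAC, 909 and 639.8 in aHF-SC and 103 and 89.0 in qHF-SC. No groups overlapped, and the HF-TAC arrays, although wide apart, lay between the stem cell groups. Fn1 was 7.97-fold higher in aHF-SC than in qHF-SC (3.0 ± 0.33, adjusted p = 0.00573), a call lost when qHF-SC replicate 2 was dropped (adjusted p = 0.0559). In HF-TAC it was 3.23-fold lower than in aHF-SC (-1.69 ± 0.33, adjusted p = 0.0124) and 2.47-fold higher than in qHF-SC (1.31 ± 0.33, adjusted p = 0.0234). Without aHF-SC replicate 1 the first of these HF-TAC calls ended (-1.44, adjusted p = 0.0688). The second ended without qHF-SC replicate 1 (0.076) or 2 (0.123), without HF-TAC replicate 2 (0.0757, where the log2 difference was 0.81) and with the offset (0.0663).

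Spon1 (F-spondin, chromosome 7 at 113765998 to 114043375) is a secreted protein first known from the floor plate of the neural tube. Intensities of its brightest probe set were 55.3 and 75.3 in HF-TAC, 572 and 131 in aHF-SC and 8.72 and 10.2 in qHF-SC. It was dim on both qHF-SC arrays, and the aHF-SC replicates differed more from each other than HF-TAC did from aHF-SC replicate 2. Spon1 was 29.0-fold higher in aHF-SC than in qHF-SC (4.86 ± 0.59, adjusted p = 0.00804). Dropping aHF-SC replicate 1 gave 3.80 and dropping replicate 2 gave 5.92, and the call was lost when qHF-SC replicate 2 was dropped (adjusted p = 0.0618) and with the offset (3.53, adjusted p = 0.0626). In HF-TAC it was 6.84-fold higher than in qHF-SC (2.77 ± 0.59, adjusted p = 0.0121). This call was lost when qHF-SC replicate 1 (0.0675), qHF-SC replicate 2 (0.0561) or HF-TAC replicate 2 (0.0587) was dropped, with the offset (1.66, adjusted p = 0.142) and with the mean of the 4 Spon1 probe sets (0.75, adjusted p = 0.126). HF-TAC minus aHF-SC, at -2.09 ± 0.59, missed the threshold (adjusted p = 0.0509) and passed without aHF-SC replicate 2 (-3.15, adjusted p = 0.00239). It also passed with 75th percentile scaling (0.0305) and with an intensity trend in limma (0.0375). The same held without probe sets whose names end in _a_at, _s_at or _x_at (0.0489). The size of any Spon1 fold against qHF-SC is uncertain, since that group was dim.

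Of 8 smooth muscle markers, 3 were higher in aHF-SC than in qHF-SC (Acta2, Tagln and Smtn), and 5 did not pass. The list summed to 589 and 785 in HF-TAC, 5086 and 2984 in aHF-SC and 495 and 417 in qHF-SC. Tagln, an actin-binding protein of contractile cells, had 102 and 148 in HF-TAC, 1539 and 746 in aHF-SC and 43.9 and 33.0 in qHF-SC. The defining markers Myh11 and Actg2 were dim on every array. Cnn1, Lmod1 and Des, which were above the lowest array median, had aHF-SC minus qHF-SC differences of -0.24, -0.01 and 0.33. In the endothelial list Tek was higher in aHF-SC than in qHF-SC, with 9.49 and 7.72 in HF-TAC, 24.5 and 31.6 in aHF-SC and 8.28 and 7.81 in qHF-SC (adjusted p = 0.00504). Col6a3 of the dermal fibroblast list had 25.1 and 34.9 in HF-TAC, 53.2 and 62.7 in aHF-SC and 19.2 and 20.4 in qHF-SC. Its groups stood in the order of Fn1 and Spon1. The dissociation stress sums had that order too, with 9 of 13 genes higher in aHF-SC and 10 of 13 in HF-TAC than in qHF-SC. The part of these markers and of the stress list in the Fn1 and Spon1 values was not tested.

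**Figure D2:**
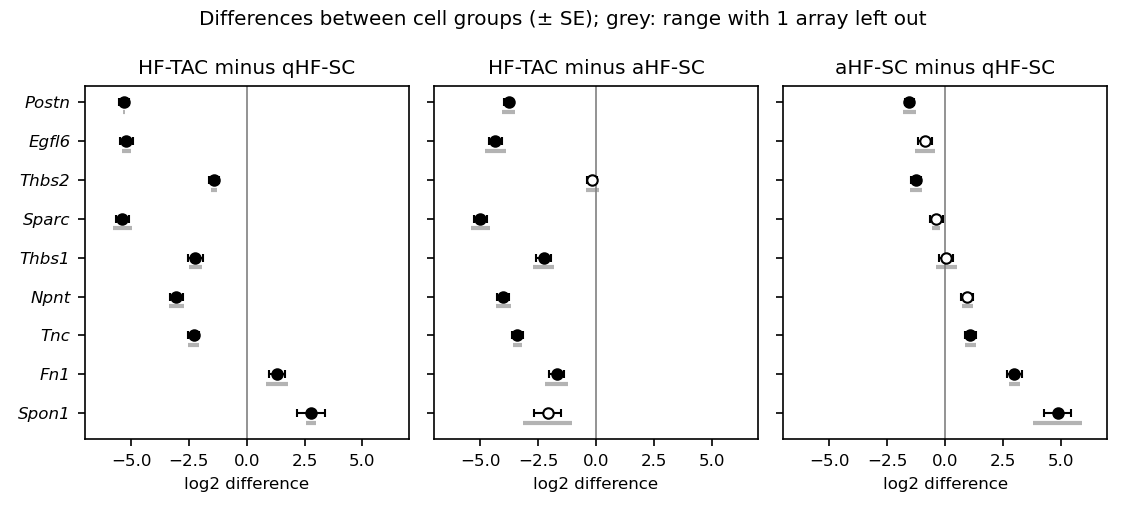
Log2 differences of the 9 genes (points, ± SE from limma) in HF-TAC minus qHF-SC, HF-TAC minus aHF-SC and aHF-SC minus qHF-SC. Filled points passed an adjusted p of 0.05, open ones did not, and grey bars span the values with 1 array left out in turn. In HF-TAC minus aHF-SC all points lie left of 0, and the Spon1 bar is the widest of the 9.

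Each of the 23 probe sets was also tested on its own, and more of them lay in the dim range. In HF-TAC against aHF-SC 14 were lower and 0 higher by limma (0 higher also at an unadjusted p under 0.05), where 6.64% of all probe sets were lower and 7.3% higher. HF-TAC against qHF-SC gave 14 lower and 2 higher, against 10.9% and 12.4% of all probe sets. For aHF-SC against qHF-SC, 3 were lower and 5 higher, against 2.82% and 2.72%. Without qHF-SC replicate 2 this count of 8 was 0 by limma (9 at an unadjusted p under 0.05), and without either aHF-SC array 4. Probe sets of 1 gene read the same RNA and are no replicates of each other. All 5 probe sets of Npnt were lower in HF-TAC than in aHF-SC, with log2 differences from -1.88 to -4.22. In aHF-SC minus qHF-SC they lay between 0.90 and 1.03, and 2 of the 5 passed (adjusted p = 0.0194 and 0.0207). The second probe set of Thbs1 was also lower in HF-TAC than in both stem cell groups, by 1.96 against aHF-SC and 1.62 against qHF-SC on the log2 scale.

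Several other probe sets did not follow. The dimmer Fn1 probe set read between 4.74 and 7.8 on all arrays, and the third of Sparc between 31.5 and 38.5. Of the 3 other Spon1 probe sets, 1 reached 42.9 and 14.5 in aHF-SC and the rest stayed between 10.6 and 21.2. A second Thbs2 probe set, with 22.7 and 13.9 in HF-TAC, 19.3 and 11.5 in aHF-SC and 35.4 and 41.1 in qHF-SC, was also lower in both other groups than in qHF-SC. The third Thbs2 probe set read between 14.6 and 26.4 and passed in no comparison. Its log2 differences were -0.12 in aHF-SC minus qHF-SC and -0.47 in HF-TAC minus qHF-SC (limma adjusted p = 0.874 and 0.278). Averaging the probe sets of a gene therefore shrank several differences. The aHF-SC minus qHF-SC value was then 1.54 for Fn1 and 1.66 for Spon1. HF-TAC minus aHF-SC was -3.37 for Sparc, -3.13 for Npnt, -2.44 for Tnc and -0.75 for Fn1 (adjusted p = 0.0648, no longer passed).

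**Figure D3:**
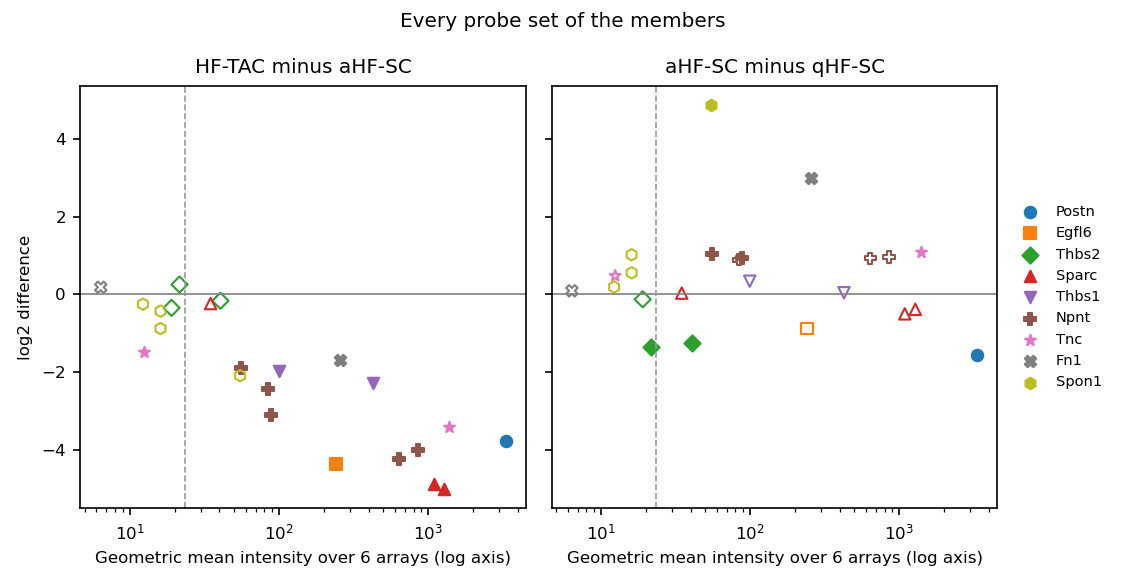
Log2 difference of each of the 23 probe sets in HF-TAC minus aHF-SC and aHF-SC minus qHF-SC, against the geometric mean intensity over the 6 arrays (log axis). Symbols and colours stand for genes, filled symbols passed an adjusted p of 0.05, and the dashed line is the median array intensity. In HF-TAC minus aHF-SC the probe sets right of the dashed line all lie below 0.

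Genes most like Postn, Npnt and Spon1 over the 6 arrays were found by the root mean square difference of log2 intensity after centring each gene. This is a description over 6 arrays in 3 groups, with no test. Nearest to Postn were Nt5e (0.156), which encodes the ecto-enzyme CD73, Dkk3 (0.228), of the Dickkopf family, and Egfl6 (0.322). Nt5e had 107 and 158 in HF-TAC, 1920.0 and 1350.0 in aHF-SC and 4587 and 4853 in qHF-SC, the same graded order as Postn. Nearest to Npnt were Jdp2 (0.185), an AP-1 family repressor, Scara3 (0.245) and Ism1 (0.318). Jdp2 had 47.9 and 38.0 in HF-TAC, 474 and 593 in aHF-SC and 391 and 240.1 in qHF-SC. The genes nearest to Spon1 were further away: Cps1 at 0.514, the smooth muscle gene Tagln at 0.617 and Pla2g7 at 0.673. Like Spon1, Cps1 was uneven within aHF-SC, with 43.8 and 56.6 in HF-TAC, 621 and 126 in aHF-SC and 19.1 and 12.7 in qHF-SC.

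Of 21 relatives of these proteins, 6 were lower and 0 higher in HF-TAC than in aHF-SC by limma, and 9 lower and 0 higher than in qHF-SC. At an unadjusted p under 0.05 the counts of higher genes were also 0. Over all genes 8.57% were lower and 8.97% higher against aHF-SC, and 12.9% lower and 13.4% higher against qHF-SC. The list's median log2 difference was -0.62 and -0.67, against -3.40 and -2.30 for the 9 genes themselves. Ccn2, a YAP target of the CCN family also known as CTGF, had 191 and 195 in HF-TAC, 2916 and 1900.0 in aHF-SC and 14484 and 21899 in qHF-SC. It fell 12.2-fold in HF-TAC against aHF-SC (adjusted p = 0.000393), 92.1-fold against qHF-SC (adjusted p = 3.51e-05) and 7.57-fold in aHF-SC against qHF-SC (adjusted p = 0.00319), with the groups in the graded order of Postn. Tgfbi, which like Postn has fasciclin domains, had 946 and 394 in HF-TAC, 5550.3 and 6503 in aHF-SC and 10940.3 and 11543 in qHF-SC. It was 9.84-fold and 18.4-fold lower in HF-TAC than in aHF-SC and qHF-SC. Without qHF-SC replicate 1 5 in place of 9 genes were lower than in qHF-SC. Further falls in HF-TAC were those of Fstl1 (log2 difference -1.90 against aHF-SC), Thbs3 (-2.03 against qHF-SC) and Tnxb (-2.14 against qHF-SC).

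In aHF-SC against qHF-SC 1 relative was higher and 3 lower, with a median of -0.07, where 3.07% of all genes were higher and 3.21% lower. With qHF-SC replicate 2 dropped 1 gene passed, and with aHF-SC replicate 2 dropped 2 did. Tnxb, a tenascin, fell by 2.29, a call lost when qHF-SC replicate 2 (adjusted p = 0.073) or aHF-SC replicate 2 (0.0521) was dropped. Spock3, at 16.5 and 16.5 in aHF-SC and 29.8 and 29.5 in qHF-SC, fell by 0.84, and its call ended without either qHF-SC array (0.0837 and 0.125), without either aHF-SC array (0.0918 and 0.0793) and after averaging its 2 probe sets (-0.41, adjusted p = 0.0989). The higher gene was Spon2, which like Spon1 encodes a spondin, at 1.86 (and -2.75 in HF-TAC against aHF-SC). It rested on 1 of its 2 probe sets. The other gave 0.54 (adjusted p = 0.139) and -0.49 (adjusted p = 0.121), neither past the threshold. The first call also ended without qHF-SC replicate 2 (log2 difference 1.51).

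Of 18 measured receptors of the niche proteins, 4 were lower in HF-TAC than in aHF-SC and 5 lower than in qHF-SC, with medians of -0.17 and -0.19, and in aHF-SC 1 was below qHF-SC, with a median of -0.01. Over all genes 8.57%, 12.9% and 3.21% were lower in these comparisons. In each comparison 0 were higher by limma, while 1, 2 and 3 were at an unadjusted p under 0.05. Without qHF-SC replicate 1 only 3 were lower than in qHF-SC. The fifth of them was Cd47, the thrombospondin receptor (-0.73, adjusted p = 0.00967), named here after its value was seen. Itgb6, the β subunit of the tenascin- and fibronectin-binding integrin αvβ6, had 14.5 and 19.8 in HF-TAC, 247 and 233 in aHF-SC and 159 and 78.3 in qHF-SC. It was 14.2-fold lower in HF-TAC than in aHF-SC (adjusted p = 0.000628) and 6.58-fold lower than in qHF-SC (adjusted p = 0.00103). The size of these folds is uncertain, since Itgb6 was dim on both HF-TAC arrays: an offset of 16 before log2 gave -2.95 and -1.96, and averaging its 2 probe sets gave -3.08 and -1.88, all past the threshold. Itgb1, the β subunit shared by the receptors of Npnt and Fn1, fell 2.48-fold in HF-TAC against aHF-SC and 2.05-fold against qHF-SC, and the second call ended without qHF-SC replicate 1 (0.0753) and without HF-TAC replicate 1 (0.0517). The heparan sulphate proteoglycan gene Sdc4 fell 2.16-fold and 2.92-fold in the same comparisons, the first call ending without aHF-SC replicate 2 (0.0723). Itgav fell 1.96-fold and 3.57-fold in HF-TAC against aHF-SC and qHF-SC, and 1.83-fold in aHF-SC against qHF-SC. The Itgav values rested on 1 of 5 probe sets, and with the mean of them none of its calls held (log2 differences -0.23, -0.40 and -0.16, adjusted p = 0.295, 0.0608 and 0.56). Its aHF-SC call also ended with any qHF-SC or aHF-SC array left out (adjusted p from 0.0722 to 0.117). Itga8, the α subunit of the nephronectin receptor on the arrector pili muscle, was dim on all 6 arrays, at 6.56 and 9.39 in HF-TAC, 8.34 and 7.74 in aHF-SC and 5.94 and 7.7 in qHF-SC.

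The partners in assembly and anchoring, enzymes and basement membrane proteins that process, cross-link or anchor these proteins, went both ways. Of 16 measured, 1 was higher and 4 lower in HF-TAC than in aHF-SC, and 3 higher and 4 lower than in qHF-SC. In aHF-SC 4 were above and 1 below qHF-SC. Over all genes the shares were 8.97% higher and 8.57% lower, 13.4% and 12.9%, and 3.07% and 3.21%. The medians of the partners were 0.00, 0.00 and 0.28. Dropping 1 aHF-SC or HF-TAC array gave 2 or 3 calls in place of 5 against aHF-SC, and dropping HF-TAC replicate 1 or 2 gave 4 or 3 in place of 7 against qHF-SC. In aHF-SC against qHF-SC at most 1 was called, in place of 5, without qHF-SC replicate 2 or without either aHF-SC array. Fras1 and Frem2, of the Fraser complex that anchors the basement membrane and that nephronectin can bind, differed in pattern. Fras1 had 62.9 and 82.7 in HF-TAC, 54.3 and 79.7 in aHF-SC and 26.4 and 25.1 in qHF-SC, being 2.81-fold higher in HF-TAC than in qHF-SC (adjusted p = 0.00295) and 2.56-fold higher in aHF-SC (adjusted p = 0.0195). Frem2 had 157 and 171 in HF-TAC, 403 and 381 in aHF-SC and 343 and 243 in qHF-SC, being 2.40-fold lower in HF-TAC than in aHF-SC (adjusted p = 0.00498). Adamts1, a matrix protease, was 4.11-fold higher in HF-TAC than in qHF-SC (adjusted p = 0.00534) and 2.59-fold higher than in aHF-SC, the second call ending without either qHF-SC array (adjusted p = 0.0566 each), without either aHF-SC array (0.0879 and 0.181) and without HF-TAC replicate 1 (0.0992, at a log2 difference of 0.82), and with the offset (0.0896).

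Bmp1, a procollagen protease that periostin can bind, had 156 and 145 in HF-TAC, 286 and 363 in aHF-SC and 172 and 99.0 in qHF-SC. It was 2.47-fold higher in aHF-SC than in qHF-SC (adjusted p = 0.0369) and 2.14-fold lower in HF-TAC than in aHF-SC (adjusted p = 0.0313), and neither call held after averaging its 3 probe sets. The elastic fibre gene Fbln5 was 2.98-fold higher in aHF-SC than in qHF-SC (adjusted p = 0.0335) and 2.34-fold higher in HF-TAC than in qHF-SC (adjusted p = 0.0258). It was dim on both qHF-SC arrays, with 20.3 and 32.9 in HF-TAC, 39.1 and 27.6 in aHF-SC and 8.8 and 13.8 in qHF-SC. Averaging its 2 probe sets ended both Fbln5 calls (0.77, adjusted p = 0.0551, and 0.55, adjusted p = 0.0633), as did the offset (0.85, adjusted p = 0.0987, and 0.63, adjusted p = 0.0884). The aHF-SC call of Fras1 ended likewise on averaging (0.60, adjusted p = 0.0571) and with the offset (0.98, adjusted p = 0.0667), and its HF-TAC value fell to 0.78 on averaging and still passed. Both Bmp1 calls and the aHF-SC call of Fbln2 also ended with the offset (adjusted p = 0.0802, 0.0616 and 0.0858). Fbln2 was 12.6-fold lower in HF-TAC than in aHF-SC and 4.94-fold lower than in qHF-SC, and 2.56-fold higher in aHF-SC than in qHF-SC. All 3 Fbln2 values rested on 1 of its 2 probe sets. The other gave log2 differences of 0.01, 0.18 and 0.17, none of which passed. The aHF-SC minus qHF-SC calls of Fras1, Bmp1, Fbln5 and Fbln2 were lost when qHF-SC replicate 2 was dropped (adjusted p = 0.132, 0.157, 0.0847 and 0.216) and when aHF-SC replicate 2 was (0.0755, 0.163, 0.0702 and 0.166). With aHF-SC replicate 1 dropped those of Bmp1, Fbln5 and Fbln2 ended (0.0969, 0.154 and 0.07), and without qHF-SC replicate 1 those of Fras1 and Fbln5 (0.0722 and 0.148). In HF-TAC, the Bmp1 call ended with either HF-TAC array (0.0756 and 0.114) or either aHF-SC array (0.0606 and 0.164) left out, and the Fbln5 call against qHF-SC without qHF-SC replicate 1 (0.147) and without HF-TAC replicate 2 (0.123).

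Loxl1 (-0.78 in HF-TAC minus aHF-SC) and Fbln1 (-0.89 in aHF-SC minus qHF-SC), an enzyme and a fibulin, complete the counts of 5 and were named after their values were seen.

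**Figure D4:**
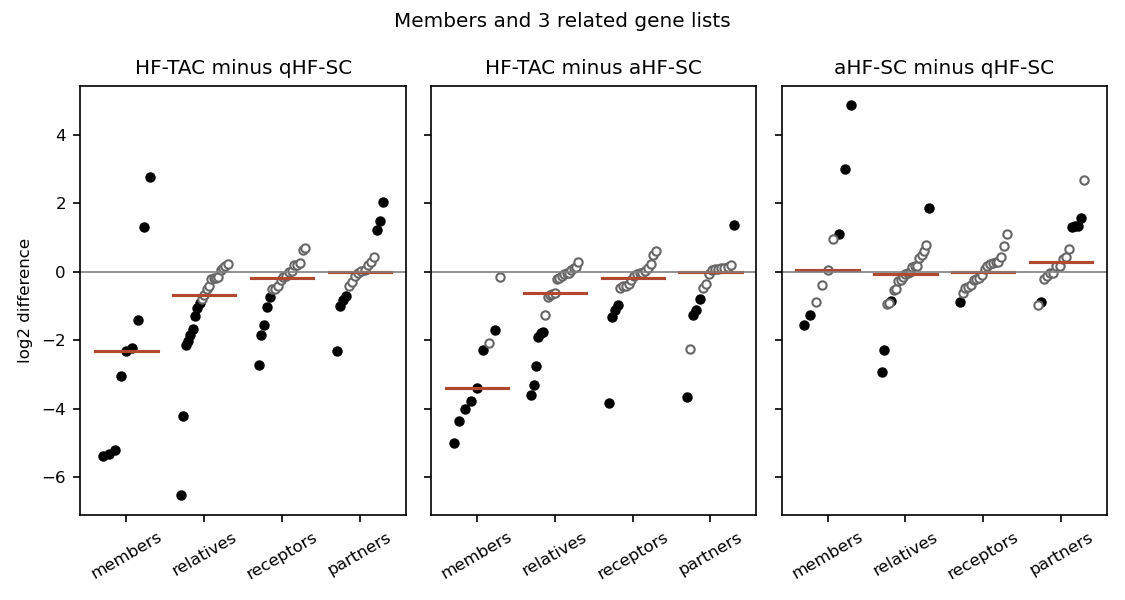
Log2 differences of the 9 genes and of the 3 related lists (21 relatives, 18 receptors, 16 partners) in HF-TAC minus qHF-SC, HF-TAC minus aHF-SC and aHF-SC minus qHF-SC. Each point is a gene, filled where it passed an adjusted p of 0.05, and horizontal bars are medians. The median of the 9 genes is -2.30, -3.40 and 0.04, and that of the receptors -0.19, -0.17 and -0.01.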

How the data were processed

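Total RNA of sorted cells was hybridised to 6 Affymetrix arrays, 2 per group, from 2 µg each per the labels' protocols. What the authors deposited is the linear intensity of each probe set, and RMA is named, without a version, per the submitters' processing notes. Neither the chip definition nor the return from log2 is stated in the sources used here. RMA compresses large folds and dim signals, and no detection calls were used. The number of arrays limits the precision.

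Intensities were put on the log2 scale. Each of 18193 genes was tested through its probe set of highest mean over the 6 arrays, and all 34945 probe sets with 1 symbol were tested in a second fit. Group means were fitted to all arrays with limma 3.58.1 in R 4.3.3 (3 residual and 4.25 prior degrees of freedom). Two-sided p-values were adjusted with Benjamini-Hochberg over all genes or probe sets within a comparison, and the threshold was 0.05. The script was tested on simulated data. No files gave slide or scan batches.

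All members are named, with up to 4 genes per related list and comparison that had the largest difference past the threshold and no overlap of arrays, and the 3 genes most like Postn, Npnt and Spon1. The members, the 3 related lists and the 12 marker lists were chosen with earlier results of these data known. Alternatives were 3 scalings, an offset of 16, dim genes left out, other probe set rules, array weights, an intensity trend, only the 2 groups compared, the replicate number as a block and each array left out.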

Additional observations from a re-analysis of the deposited data

How the results depend on the processing

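With 2 arrays a group, aHF-SC against qHF-SC depended most on single arrays. Of the 9 genes 5 passed there, and 0 to 5 did with 1 array left out: 0 without qHF-SC replicate 2 by limma, where 5 were at an unadjusted p under 0.05, and 3 without aHF-SC replicate 2. An offset of 16 before log2 left 2, and leaving out dim genes or taking the mean of probe sets left 3 each. Over all genes the offset left 215 higher and 333 lower, against 558 and 584 without it. Calls over all genes fell as well when qHF-SC replicate 2 or aHF-SC replicate 2 was dropped. Of the 23 probe sets 8 passed there, 4 with the offset and 0 to 9 with 1 array left out (0 without qHF-SC replicate 2, where 9 were at an unadjusted p under 0.05, and 4 without either aHF-SC replicate). For the 9 genes and 23 probe sets, the counts of both HF-TAC comparisons stayed within 1.5 times under every alternative run. Values that turned sign were those of Thbs1, Thbs2 and Fbln2. Thbs1 turned in aHF-SC minus qHF-SC without qHF-SC replicate 2 (-0.23) or aHF-SC replicate 2 (-0.41, in a range of -0.41 to 0.50). Thbs2 turned in HF-TAC minus aHF-SC without aHF-SC replicate 1 (0.11, in a range of -0.44 to 0.11). Fbln2, through its other probe set, turned in HF-TAC minus aHF-SC (0.0109) and HF-TAC minus qHF-SC (0.18). The cause was not tested. Over all alternatives, member values kept direction and side of the threshold in 429 cases, fell below it in 26, passed it newly in 4 and turned sign in 3. No scaling moved the median of all genes by over 0.1.

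The replicate numbers do not pair the samples as far as the labels say, and deviations of same-numbered arrays correlated at 0.06 (aHF-SC and qHF-SC), 0.08 (HF-TAC and aHF-SC) and -0.13 (HF-TAC and qHF-SC) across genes. With the replicate number as a block, 4 of the 9 genes passed in aHF-SC minus qHF-SC, 7 in HF-TAC minus aHF-SC and 9 in HF-TAC minus qHF-SC, and the call of Tnc in aHF-SC minus qHF-SC ended (adjusted p = 0.0605). A crossed pairing of HF-TAC with qHF-SC, chosen after seeing the data, called 9 genes and 15 probe sets, against 9 and 16. Among the related lists, partners called in aHF-SC minus qHF-SC numbered 5, but 0 with the offset and 1 with the block. Without either aHF-SC array or without qHF-SC replicate 2 they numbered at most 1.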
